A study of Mus musculus with 6 samples.

Results

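The genes described here were 8 amino acid transporter genes and the glutamine synthetase gene, measured by RNAseq in WT and *Slc37a2* KO osteoclasts. They are *Slc3a2*, *Slc7a5*, *Slc7a8*, *Slc7a7*, *Slc7a11*, *Slc1a5*, *Slc38a1*, *Slc38a2* and *Glul*. They were found by exact gene symbol, and all 9 were among the 22601 genes of the deposited count table. *Glul* encodes the enzyme that makes glutamine from glutamate.

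Amino acids cross the cell surface through several families of carriers. In the heterodimeric exchangers, a glycoprotein heavy chain (4F2hc, or CD98) encoded by *Slc3a2* carries one of several light chains of the Slc7 family to the plasma membrane, and the light chain sets which amino acids are exchanged. *Slc1a5* and the Slc38 carriers bring in glutamine and other small neutral amino acids with sodium. Osteoclasts are large multinucleated cells that form by fusion of macrophage-lineage precursors. Their differentiation is known to need a supply of glutamine. Leucine is known to activate the growth kinase complex mTORC1.

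The libraries were 3 from WT and 3 from *Slc37a2* KO mice, 1 animal each. The column headings also hold the letter F and 11 weeks. The KO mice were homozygous for the tm2a targeting cassette from the KOMP consortium, derived from a single embryonic stem cell clone and kept on the C57BL/6N background, and the deletion is present in the whole body. By the labels, bone marrow macrophages of both genotypes were grown for 5 days with RANKL at 10 ng/ml and M-CSF at 2 ng/ml. The study's methods for this assay instead describe RNA from whole bones. Its separate methods for osteoclast culture state that the medium held added l-glutamine. Totals ran from 27552183 to 42522292 counts per library. *Slc37a2* itself stood at 1857 to 2440 CPM in WT and at 32.1 to 45.3 CPM in KO, as the genotype labels say. CPM here is the count relative to the library total after TMM scaling, a correction for libraries that differ in composition.

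The defining osteoclast genes were abundant. The 10 osteoclast markers (*Acp5*, *Ctsk*, *Mmp9* and others) summed to between 39870 and 57360 CPM in WT and between 44350 and 70380 CPM in KO libraries, before TMM scaling. The 9 macrophage markers (*Lyz2*, *Adgre1*, *Mrc1* and others) summed to between 3217 and 6814 CPM in WT and between 3010 and 6289 CPM in KO. Stromal and osteoblast markers summed to between 826 and 1541 CPM in WT and between 582 and 1849 CPM in KO, most of it collagen, while *Bglap* and *Lum* were near 0. Every one of these lists varied more within a genotype than between the means, and no marker in them was at 0 in all libraries. Neutrophil and lymphoid markers, 6 of 9 of which were in the table, summed to 0.762 to 1.34 CPM in WT and 0.376 to 0.635 CPM in KO.

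Cells that lack an amino acid raise the factor ATF4, which binds a short response element in its target genes, and *Slc7a11*, the cystine-glutamate exchanger, is a textbook target. The 8-letter core TGATGCAA was sought on both strands of the RefSeq promoter windows of GRCm38.p6, which run from 250 bases before to 50 bases after a start site. Windows were held for 6 of the 9 genes, and 2 of these 6 had a match, against 1.03% of all 27025 genes with a window and 0.895% of all 32851 windows. The stretches are shown because they place this core beside 2 of the exchangers described here, with the core in capitals. They are sequence matches only, and binding of ATF4 to them was not tested. No window was held for *Slc7a5*, *Slc1a5* and *Slc38a1*. Elements outside the windows, or with a differing core, were not sought, so a gene without a match may still have one. Both are read 5′ to 3′ on the minus strand. The *Slc7a11* stretch is at chr3:50443652-50443680 and holds the core in each orientation, and the *Slc7a7* stretch is at chr14:54417927-54417956 and holds it once.
Slc7a11: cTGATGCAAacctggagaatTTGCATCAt
Slc7a7: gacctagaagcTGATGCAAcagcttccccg

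Whether loss of *Slc37a2* changes the mRNA of these genes was asked with edgeR's quasi-likelihood test across 13483 genes. None of the 9 genes was called at an adjusted p below 0.05, where 0.00742% of all tested genes (*Slc37a2* alone) were called. At an unadjusted p below 0.05 there were also 0 of the 9, beside 0.712% of all tested genes. The likelihood ratio test of edgeR and the Wald test of DESeq2 likewise called 0 of them. In no case did the 3 KO libraries lie wholly above or wholly below the 3 WT libraries, which happened for 4.31% of all tested genes. The log2 fold changes of KO over WT ran from −0.45 (*Slc7a8*) to 0.25 (*Slc3a2*) with a median of −0.10, against a median of −0.02 over all tested genes. The estimate was above 0 for 3 genes and below 0 for 6. Over all 13483 tested genes it was above 0 for 5899 and below 0 for 7584.

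The intervals say how large a difference these libraries leave room for. For 8 of the 9 genes the 95% interval of the log2 fold change lay between −1 and 1, so a 2-fold difference in either direction fell outside it. Over all tested genes this share was 78.5%. The exception was *Slc7a8*, with an interval from −1.81 to 0.91, which also reaches past the limit of 1.5 that the study set. The narrowest interval was that of *Slc38a2*, from −0.25 to 0.13.

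**Figure D1:**
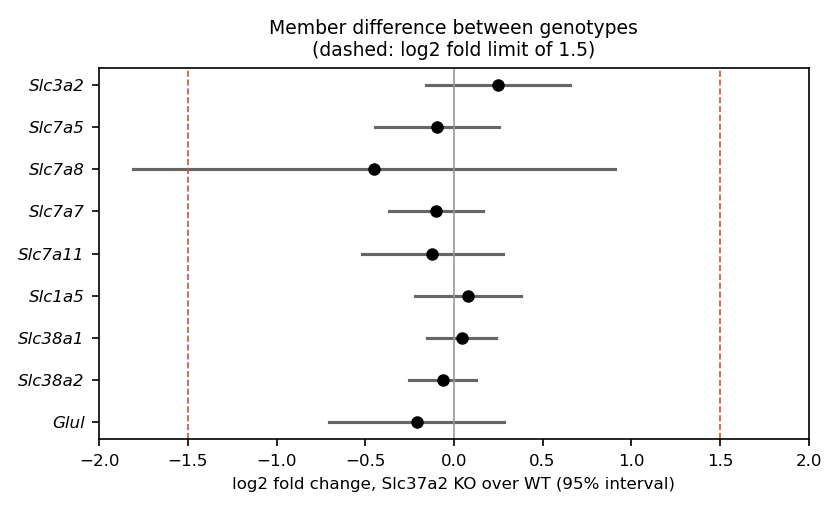
KO over WT as a log2 fold change (horizontal axis) for the 9 genes, with the 95% interval as a line and the study's limit of 1.5 dashed. Every interval spans 0, and that of *Slc7a8*, from −1.81 to 0.91, is the widest and alone crosses a dashed line.

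*Slc3a2*, the heavy chain shared by the exchangers, was measured at 154 (K090), 163 (L080) and 203 CPM (L082) in WT. Values of other genes follow this order of libraries. The KO values were 235 (K089), 162 (L078) and 221 CPM (L081). The groups overlapped because KO library L078 lay at the level of the lower WT libraries. The means were 174 ± 25.6 and 206 ± 38.5 CPM (SD, n = 3 each). The log2 fold change was 0.25 (standard error 0.17, adjusted p = 0.969 by Benjamini-Hochberg). It was 0.40 without WT L082, 0.39 without KO L078 and 0.17 without KO K089.

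*Slc7a5* encodes LAT1, the light chain that takes up leucine and other large neutral amino acids in exchange for glutamine. It stood at 39.0, 37.0 and 42.6 CPM in the WT libraries, and at 31.0, 45.0 and 34.8 CPM in the KO libraries. Both the lowest and the highest level were in KO, and the 3 WT values lay between them. The means were 39.5 ± 2.84 and 36.9 ± 7.24 CPM (SD, n = 3 each), with a log2 fold change of −0.10 (standard error 0.15).

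*Slc7a7* encodes y+LAT1, which exports cationic amino acids such as arginine in exchange for neutral ones. Its level was 16.1, 16.01 and 17.4 CPM in WT and 15.5, 17.0 and 13.6 CPM in KO libraries, again with overlap. Its exons overlap those of *Oxa1l*, a mitochondrial insertase gene on the opposite strand at 82.9 to 90.3 CPM. The sources used here do not state whether counting used strand, so reads in that overlap cannot be assigned to either gene from these values. *Slc7a11* encodes xCT, the exchanger that brings in cystine for glutathione synthesis and releases glutamate. It was the lowest of the 9, at 10.5, 11.4 and 9.76 CPM in WT and 7.71, 11.3 and 10.0 CPM in KO. Its log2 fold change was −0.12 (standard error 0.16).

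**Figure D2:**
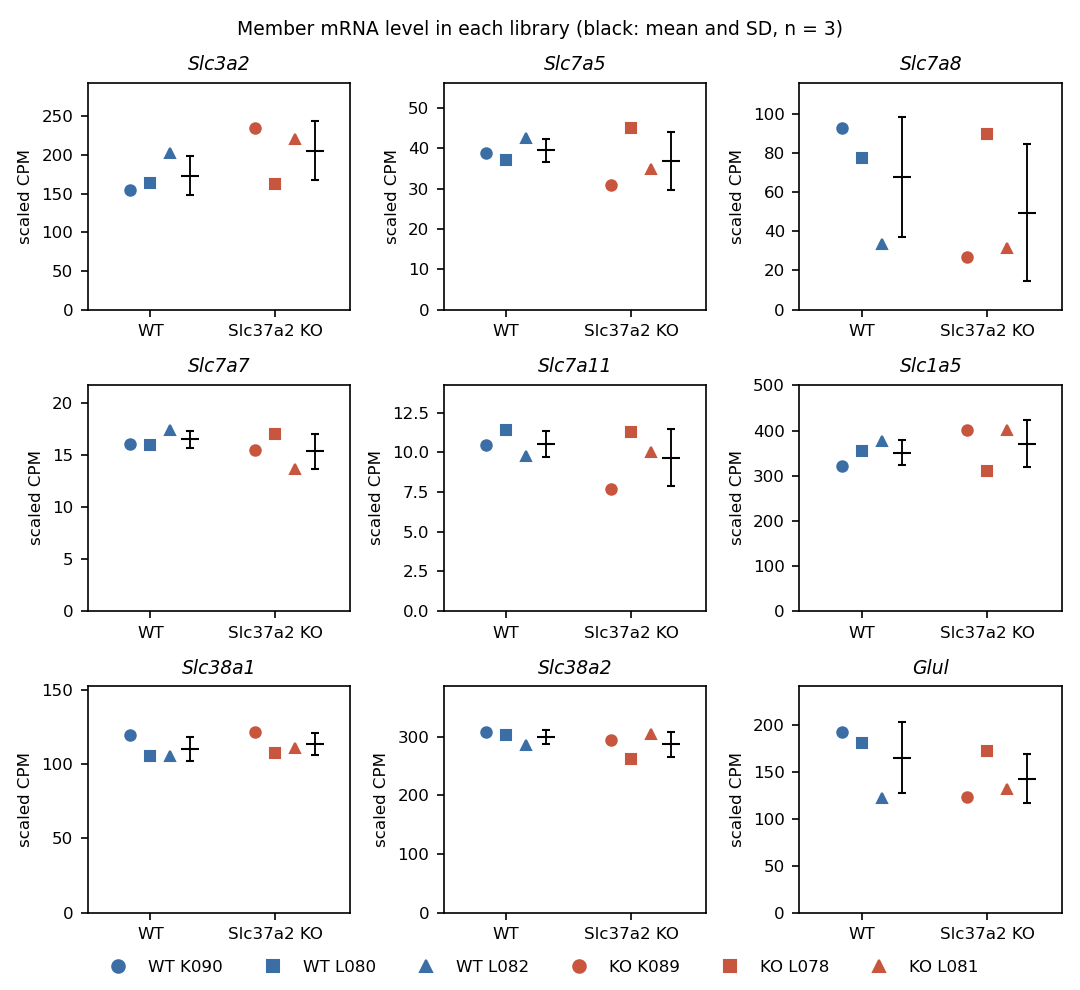
Scaled CPM (vertical axis, from 0) of each of the 9 genes in the 3 WT and 3 KO libraries, 1 point per library with the mean and SD beside it. Groups overlap in every panel, and *Slc7a8* alone spreads over more than 2-fold, from 27.0 to 92.5 CPM.

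*Slc7a8* encodes LAT2, a light chain for neutral amino acids with a broader range than LAT1. It had the widest spread of the 9. Its levels were 92.5, 77.2 and 33.4 CPM in WT (K090, L080, L082), and 27.0, 89.6 and 31.6 CPM in KO (K089, L078, L081). High values thus occurred in 2 WT libraries and 1 KO library, and low values in 1 WT library and 2 KO libraries. The means were 67.7 ± 30.7 and 49.4 ± 34.9 CPM (SD, n = 3 each), and the log2 fold change was −0.45 (standard error 0.56, adjusted p = 0.969 by Benjamini-Hochberg). Without KO library L078 it was −1.21, with an unadjusted p of 0.0295 and an adjusted p of 0.231 in edgeR. In that fit 20.1% of all tested genes had an unadjusted p below 0.05.

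The highest level of *Slc7a8* was 3.43 times the lowest, and 2.77 times within WT alone. Of all tested genes, 2.67% had a wider range across the 6 libraries, on the scale of log2(CPM + 0.5). The ranges of the other 8 genes were from 1.16-fold (*Slc38a1*) to 1.58-fold (*Glul*). *Slc7a8* was the 1 gene of the 9 with a range over 2-fold, beside 22.6% of all tested genes.

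Of the 9 macrophage markers, all but *Csf1r* and *Cd163* were likewise higher in WT K090, WT L080 and KO L078 than in the other 3 libraries. *Csf1r* was at 1724 to 2096 CPM and *Cd163* at 0.200 to 0.642 CPM. None of the 9 was called, with log2 fold changes from −0.72 to 0.08. *Adgre1*, which encodes the macrophage surface protein F4/80, was at 312, 272 and 80.02 CPM in WT and at 64.4, 262 and 95.8 CPM in KO libraries. *Mrc1*, the mannose receptor, was at 96.2, 81.3 and 22.5 CPM in WT and at 14.3, 87.8 and 19.1 CPM in KO. Each gene's log2 level was centred on its mean over the 6 libraries to compare such profiles. The median profile of the 9 macrophage markers was 0.99, 0.66 and −0.81 in WT and −1.08, 0.80 and −0.63 in KO libraries. That of *Slc7a8* was 0.84, 0.58 and −0.61 in WT and −0.91, 0.80 and −0.69 in KO. The root-mean-square difference between them was 0.129 log2 units. From the osteoclast markers *Slc7a8* differed by 1.03, from the interferon response genes by 0.392 and from the stromal markers by 0.751. The difference from the 10 cell cycle genes (*Mki67*, *Top2a* and others) was 0.496. In bulk libraries, fewer cells of a type and less RNA per cell cannot be told apart, and the part of the macrophage genes in the spread of *Slc7a8* was not tested.

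*Slc3a2* lay at the other end. Its profile, −0.28, −0.19 and 0.11 in WT and 0.33, −0.21 and 0.24 in KO libraries, differed from the median profile of the osteoclast markers by 0.0863 log2 units, and from that of the macrophage markers by 1.07. *Slc1a5* (0.161), *Slc38a1* (0.286) and *Slc38a2* (0.289) were also nearest to the osteoclast markers. *Slc7a5* (0.204), *Glul* (0.214), *Slc7a11* (0.219) and *Slc7a7* (0.287) were nearest to the cell cycle genes. A gene with the same level in every library would lie 0.292 from the osteoclast markers and 0.329 from the cell cycle genes. From the macrophage markers it would lie 0.844, from the interferon response genes 1.06 and from the stromal markers 0.519. A small difference from the osteoclast markers or the cell cycle genes thus says less. The 10 osteoclast markers themselves had 0 genes called, and their log2 fold changes ran from 0.05 to 0.45. The heavy chain and *Slc7a8* thus had opposite signs in every library. These are descriptions over 6 libraries, which enter every profile alike, with no test of likeness, and the part of these lists in the genes' levels was not tested.

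**Figure D3:**
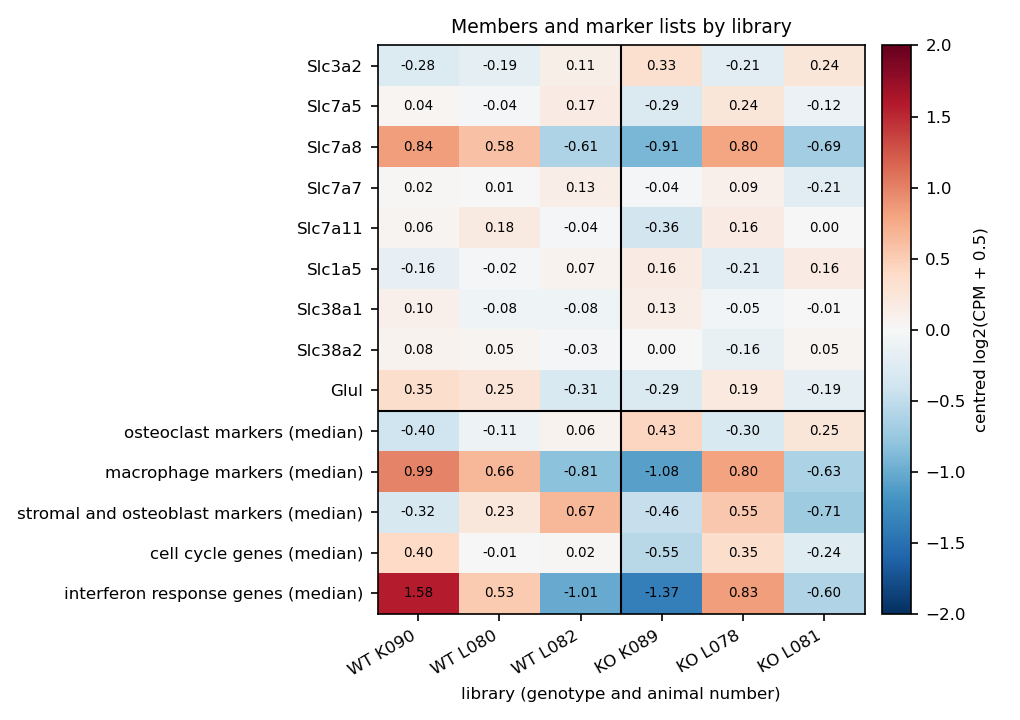
Log2(scaled CPM + 0.5) of each gene minus its mean over the 6 libraries, by library (columns, WT left and KO right), with the median profile of 5 marker lists below. *Slc7a8* has the signs of the macrophage markers in all 6 libraries, from 0.84 in WT K090 to −0.91 in KO K089, and *Slc3a2* those of the osteoclast markers. The interferon response genes and *Glul* share the signs of *Slc7a8*, and *Slc1a5* shares those of *Slc3a2*.

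Of the sodium-coupled carriers, *Slc38a1* and *Slc38a2* varied little. For *Slc1a5*, 53.1% of all tested genes had a larger range. *Slc1a5*, which encodes the glutamine and neutral amino acid carrier ASCT2, was at 322, 355 and 377 CPM in WT and at 401, 311 and 401 CPM in KO libraries. The highest values and the lowest value were all in KO. The means were 351 ± 27.7 and 371 ± 52.0 CPM (SD, n = 3 each), with a log2 fold change of 0.08 (standard error 0.12).

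*Slc38a2* encodes SNAT2, which is known to accumulate at the surface of cells short of amino acids. It stood at 309, 304 and 286 CPM in WT and at 294, 263 and 304 CPM in KO libraries, and its log2 fold change was −0.06 (standard error 0.08). *Slc38a1* encodes SNAT1, a related carrier, and was at 120, 105 and 105 CPM in WT and at 122, 108 and 111 CPM in KO libraries. Its log2 fold change was 0.04 (standard error 0.08). The 2 genes lie on chromosome 15 of GRCm38 in the GENCODE M21 annotation, 44.5 kb apart on the same strand. They were also each other's closest profile among the 9, with a root-mean-square difference of 0.0921 log2 units. Many other tested genes were closer. *Slc38a2* was in place 1849 by closeness to *Slc38a1*, and *Slc38a1* in place 2347 by closeness to *Slc38a2*. Both profiles were nearly flat, and 80.8% (*Slc38a1*) and 75.9% (*Slc38a2*) of all tested genes had a larger range.

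*Glul*, glutamine synthetase, was at 193, 181 and 122 CPM in WT and at 124, 173 and 132 CPM in KO libraries. It was higher in the 3 libraries where *Slc7a8* was high (WT K090, WT L080 and KO L078), over a narrower range, and the highest and lowest values were both in WT. Its profile differed by 0.58 log2 units from the macrophage markers and by 0.214 from the cell cycle genes, its nearest list. The nearest profile among the other members was that of *Slc7a11*, at 0.186. The means of *Glul* were 166 ± 37.9 and 143 ± 26.2 CPM (SD, n = 3 each). The log2 fold change was −0.21 (standard error 0.20, 95% interval −0.70 to 0.28). It was −0.08 without WT K090, −0.10 without KO K089, −0.36 without WT L082 and −0.37 without KO L078. Its exons overlap *Teddm2* on the opposite strand, which was counted at no more than 0.0353 CPM.

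Levels of different genes were compared per kb of the union of annotated exons in GENCODE M21, a length that the authors' counting may not share. In this order, the mean scaled CPM per kb over the 6 libraries was 86.5 for *Slc1a5*, 53.8 for *Slc3a2*, 46.4 for *Glul*, 33.2 for *Slc38a2*, 11.7 for *Slc7a8*, 10.3 for *Slc7a5*, 6.49 for *Slc38a1*, 4.81 for *Slc7a7* and 0.726 for *Slc7a11*. The ranges over libraries overlapped between *Slc3a2* and *Glul*, and between *Slc7a8* and *Slc7a5*. By this length, the other neighbours in the order did not overlap. With the longest annotated transcript in place of the union, 3 places changed, and *Slc38a1* moved from the 7th to the 5th at 15.4 CPM per kb. Its exon union, 17236 bp, is much longer than its longest transcript, 7266 bp. By the longest transcript, *Glul* (43.8 to 69.26 CPM per kb) also overlapped *Slc38a2* (42.99 to 50.52). *Slc38a1* (14.5 to 16.77) then overlapped *Slc7a8* (6.614 to 22.65).

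**Figure D4:**
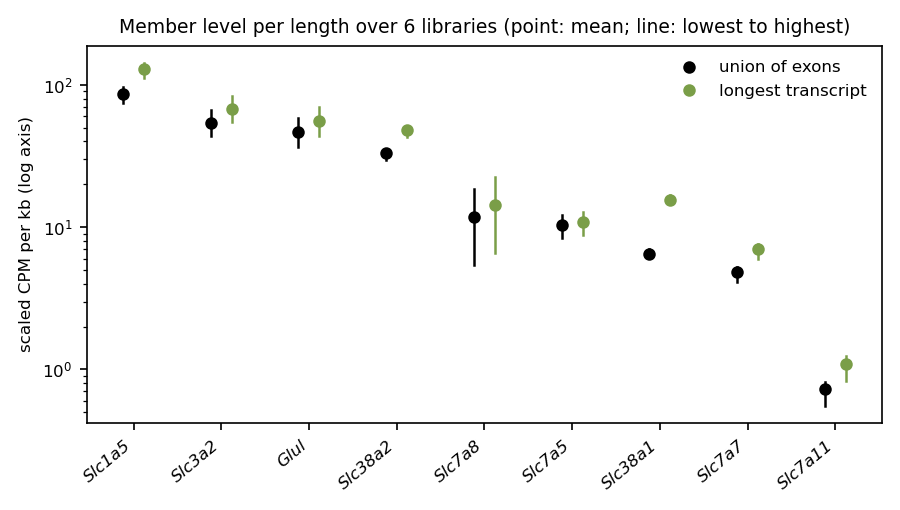
Scaled CPM per kb (log axis) of the 9 genes over 6 libraries, with the mean as a point and the range as a line, for 2 measures of gene length. *Slc1a5* is highest at 86.5 and *Slc7a11* lowest at 0.726 by the union of exons, and *Slc38a1* is the gene whose level depends most on the length used.

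The balance of the exchanger was read within each library as the heavy chain over the sum of 5 light chains, *Slc7a5*, *Slc7a6*, *Slc7a7*, *Slc7a8* and *Slc7a11*, per kb. This ratio, chosen after the values were seen, was 1.05, 1.22 and 1.82 in WT and 2.53, 1.06 and 2.28 in KO. The groups overlapped (exact permutation test, two-sided, p = 0.3, or 0.6 after Benjamini-Hochberg adjustment over the 3 ratios computed; the smallest p that 3 against 3 allow is 0.1). The ratio of glutamine carriers, *Slc1a5* over *Slc38a1* plus *Slc38a2*, was 2.10 ± 0.252 in WT and 2.27 ± 0.173 in KO (SD, n = 3 each; exact permutation test, two-sided, p = 0.4).

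Which light chain dominated depended on the library. *Slc7a8* held 44.2%, 40.5% and 41.2% of the summed light chain level in libraries WT K090, WT L080 and KO L078. It held 21.2%, 20.5% and 23.0% in WT L082, KO K089 and KO L081, where *Slc7a5* was the largest at 31.7% to 36.5%. With the longest transcript as the length, *Slc7a6* at 28.0% stood above *Slc7a5* at 27.5% in KO K089. *Slc7a11* held 1.80% to 2.63% throughout. *Slc7a6*, the y+LAT2 light chain, was steady at 31.5 to 34.3 CPM in the 6 libraries.

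Other genes of amino acid handling were taken from 5 lists. Among other transporters of the cell surface, 17 of 21 were in the table and 11 were tested. None was called by edgeR, 0 had an unadjusted p below 0.05, and the median log2 fold change was −0.10. The most abundant by CPM was *Slc6a6*, the taurine carrier, at 1140, 1084 and 988 CPM in WT and 1205, 1091 and 1137 CPM in KO libraries. *Slc43a2*, the sodium-independent carrier LAT4, was at 287, 274 and 159 CPM in WT and 165, 284 and 183 CPM in KO, and *Slc7a1*, the arginine carrier CAT1, at 105 to 135 CPM.

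Because *Slc37a2* is itself a carrier of lysosomes, transporters that move amino acids across the lysosomal membrane were also examined. Of 9 tested, 0 were called and 0 had an unadjusted p below 0.05, with a median log2 fold change of 0.05. *Mfsd12*, which takes cysteine into lysosomes, was at 686, 725 and 776 CPM in WT and 928, 631 and 859 CPM in KO libraries. Its log2 fold change was 0.15 (standard error 0.15). *Ctns*, the cystine exporter cystinosin, had a log2 fold change of 0.09 and *Slc36a4* one of 0.10. *Slc38a9*, the arginine sensor of the lysosome, was at 29.6 to 32.2 CPM, with a log2 fold change of 0.03.

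Enzymes of glutamine and glutamate had 0 of 12 tested genes called and 0 with an unadjusted p below 0.05, with a median log2 fold change of 0.01. *Glud1*, glutamate dehydrogenase, was at 382, 382 and 390 CPM in WT and at 422, 378 and 411 CPM in KO libraries. *Gfpt1*, which spends glutamine on hexosamine synthesis, had a log2 fold change of 0.18 (standard error 0.10), and *Got2*, the mitochondrial aspartate transaminase, one of 0.02. The list of mTORC1 sensing genes had 0 of 14 called and 0 with an unadjusted p below 0.05, with a median of 0.00. *Mtor* (−0.01), *Rptor* (0.01) and *Rheb* (0.02) had the highest levels of that list.

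The amino acid response and serine synthesis list had 0 of 18 genes called, and 1 had an unadjusted p below 0.05, beside 0.712% of all tested genes. This was *Shmt2*, the mitochondrial enzyme that splits serine to glycine, with a log2 fold change of −0.19 (standard error 0.08, unadjusted p = 0.0464, adjusted p = 0.969 in edgeR). It was at 94.7, 94.3 and 92.5 CPM in WT and 76.4, 90.9 and 78.8 CPM in KO libraries, and its groups did not overlap. It was the 1 gene of the 18 without overlap, beside 4.31% of all tested genes. *Atf4* was at 237, 253 and 321 CPM in WT and 337, 226 and 344 CPM in KO. The log2 fold changes were 0.16 for *Atf4*, 0.22 for *Eif4ebp1* and 0.06 for *Mthfd2*, with standard errors of 0.19, 0.21 and 0.24. The median of this list was −0.04. Promoter windows were held for 17 of its 18 genes, and 4 of the 17 had the core shown above (*Atf3*, *Chac1*, *Nupr1* and *Vldlr*).

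**Figure D5:**
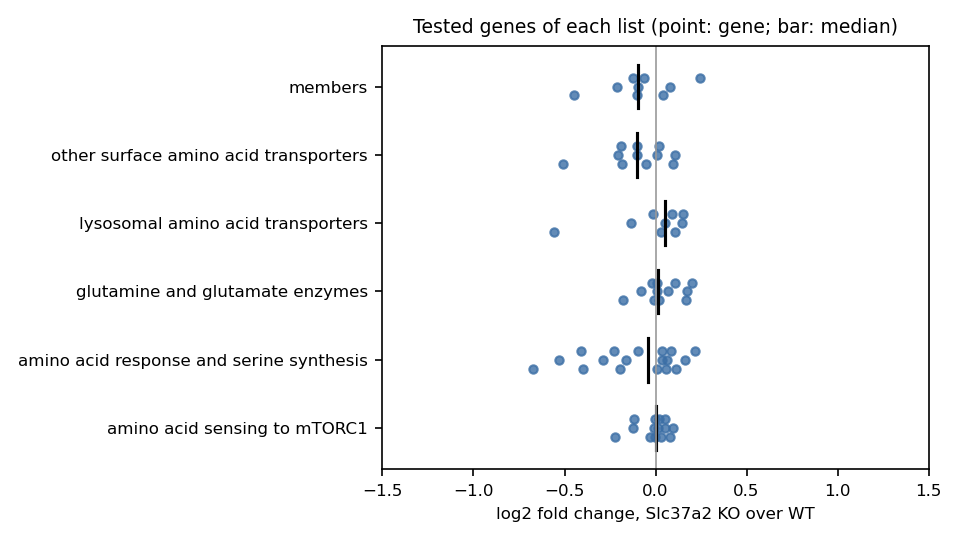
KO over WT as a log2 fold change (horizontal axis) for each tested gene of the 9 genes described here (members) and of 5 lists of amino acid genes, with the median as a bar. Medians lie between −0.10 and 0.05, and the widest list, amino acid response and serine synthesis, runs from −0.67 to 0.22.

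For each of the 9 genes, the tested gene with the closest profile over the 6 libraries was also sought, by the same root-mean-square difference. For *Slc7a8* it was *Slc11a1*, the metal ion carrier of phagosomes, at 0.0576 log2 units, with 85.3, 71.3 and 32.9 CPM in WT and 25.1, 77.8 and 27.9 CPM in KO libraries. For *Slc3a2* it was *Tmem268* (0.0223), for *Slc1a5* *Esrra* (0.0139) and for *Glul* *Parp10* (0.0249). *Slc38a1* was closest to *Rgs14* (0.0176), *Slc38a2* to *Zfp128* (0.0261) and *Slc7a7* to *Pcgf3* (0.0278). *Slc7a5* (nearest *Bmper*, 0.0255) and *Slc7a11* (nearest *Kit*, 0.0405) were matched to genes at about 1 CPM or less, whose profiles rest on few counts. No member was the closest gene to another.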

How the data were processed

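RNAseq counts of 3 WT and 3 *Slc37a2* KO libraries were used. The authors deposited whole-number read counts per gene symbol, not normalized, from NovaSeq data processed with bcl2fastq 2.20.0.422. The submitters' processing notes name the build mm10. For aligner and counter, nothing was given in the sources used here. The count table also holds the fold changes and p-values of the authors' edgeR 3.30.3 comparison, which were not used, nor was a shorter table of top genes. Columns were assigned to a genotype by heading, and 0 columns belonged to other samples.

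Genotypes were compared in edgeR 4.0.16 under R 4.3.3 (filterByExpr defaults, TMM, glmQLFit and glmQLFTest, genotype as the only term, Benjamini-Hochberg over 13483 genes), and DESeq2 1.42.0 as an alternative. Calls used an adjusted p below 0.05, and the study's log2 fold limit of 1.5 was also applied. Intervals are 95% intervals from the fit's standard errors. The fit was tested on simulated data with known changes. Exact permutation tests used scipy 1.17.1. Lengths and positions came from GENCODE M21 (GRCm38). The p-values and intervals cover the spread between these libraries.

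The members and lists were chosen with earlier results of these data known. Named genes were the members, *Slc37a2*, the 3 most abundant genes of each amino acid list and any with an unadjusted p below 0.05, and the closest profiles. *Slc38a9*, *Slc7a6*, the overlapping genes, the genes with a promoter match and the marker genes were named outside this rule, after their values were seen, as were the ratios. Some results that the rule covers, 1 of the 3 ratios included, are not reported here.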

Additional observations from a re-analysis of the deposited data

How the results depend on the processing

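The number of members called stayed at 0 with size factors from DESeq2, with upper quartile scaling, with no filter on low counts, at least 1 CPM in 3 libraries, the likelihood ratio test, DESeq2's Wald test, a term for the letter that opens the animal number, and each library left out. The lowest adjusted p of any member over these 13 alternatives was 0.227, for *Slc3a2* without KO library L078. Over all genes, the number called was 2 in place of 1 with no filter, with the likelihood ratio test and with DESeq2's Wald test, with and without the fold limit. The sign of a member's log2 fold change held in 115 of 117 alternative estimates. The exceptions were *Slc7a5* and *Slc7a11* without KO library K089. With single libraries left out, *Slc7a5* ran from −0.26 (without KO L078) to 0.0357, and *Slc7a11* from −0.25 (without KO L078) to 0.0378. *Slc7a8* ran from −1.21 without KO L078 to −0.14 without KO K089, *Slc3a2* from 0.17 to 0.40 and *Glul* from −0.37 to −0.08. The estimates nearest 0 also moved, from 0.02 to 0.19 for *Slc1a5*, 0.01 to 0.11 for *Slc38a1*, −0.0854 to −0.00359 for *Slc38a2* and −0.18 to −0.00474 for *Slc7a7*. Without KO L078, 3 members (*Slc3a2*, *Slc7a5* and *Slc7a8*) had an unadjusted p below 0.05, as did 20.1% of all tested genes, and none was called. The causes were not tested. The order of levels changed in 3 places with the longest transcript as the length, and CPM without TMM scaling also left 0 members whose groups did not overlap. No paired analysis was possible because the columns carry animal numbers, and the sources used here do not state which animals were littermates. Genes at about 1 CPM or less, such as *Bmper* and *Kit*, rest on few counts.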

Other observations

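The genes below, from the amino acid lists, were named after their values were seen. *Slc15a3*, a histidine and peptide carrier of endolysosomes, was at 19.2, 16.8 and 5.46 CPM in WT (K090, L080, L082) and at 4.07, 19.5 and 4.38 CPM in KO (K089, L078, L081). *Atf3*, a stress-response factor, was at 26.1, 21.3 and 7.90 CPM in WT and at 6.57, 18.6 and 9.37 CPM in KO. *Sesn1*, a leucine-sensing relative of *Sesn2*, was at 60.5, 55.2 and 27.7 CPM in WT and at 31.9, 55.1 and 35.8 CPM in KO. These 3 were high in the same libraries as *Slc7a8* and the macrophage markers, whose part in them was not tested. Other genes of these lists, *Slc43a2*, *Slc36a1* and *Slc16a10* among them, were also higher in those libraries. *Phgdh*, the first enzyme of serine synthesis, had another order, at 7.60, 13.9 and 17.7 CPM in WT and at 6.13, 14.8 and 5.90 CPM in KO. *Psat1*, the next enzyme of that pathway, was at 55.0, 46.5 and 51.1 CPM in WT and at 31.0, 50.4 and 34.0 CPM in KO, with a log2 fold change of −0.40 (standard error 0.19). The adjusted p of each was 0.969 in edgeR's quasi-likelihood test.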
